A study of Mus musculus x Mus spretus with 8 samples.

Results

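All 6 edited libraries of a mouse fibroblast line were set, as 1 side, against the 2 unedited libraries of the same line, to describe the autosomal expression programme that every edited library had in common. The 6 libraries, of 8 in all, are those the labels call Stc1, Pygo1 and Rlim homozygous null mutants, with 2 libraries for each label, and the 2 others are wild type (WT). Every library came from Patski cells, a line of female fibroblasts whose parents were C57BL/6 and SPRET/EiJ (Mus spretus), grown in DMEM with 10% fetal bovine serum; the animal's age and any treatment are not given in the labels. The study's description gives 2 independent mutants for each knocked-out gene, while nothing says that the WT pair came from separate cultures, so p-values measure only the spread between these libraries. A gene was counted as shared when it lay on chromosomes 1 to 19, passed the test of the 6 libraries against the 2 at an adjusted p under 0.05, and had all 6 knockout-labelled values on the same side of both WT values. Levels are given as CPM, counts per 1000000 counted reads after scaling between libraries. Log2 fold changes and log2 ratios are fitted values of knockout-labelled, or edited, libraries over WT with their standard errors (SE).

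Some of the shared genes belong to programmes whose logic is known. In cells exposed to cytokines or microbial products, the transcription factor NF-kB enters the nucleus and induces chemokines, colony-stimulating factors, inducible nitric oxide synthase and acute phase proteins, together with inhibitors of its own pathway. Under amino acid shortage or unfolded proteins, phosphorylation of eIF2alpha raises the translation of ATF4, which induces amino acid transporters, tRNA synthetases and enzymes of serine, proline and one-carbon metabolism. Sterol synthesis genes are driven by SREBP2 when membrane cholesterol is low, and glycolytic genes by HIF1A when oxygen is low.

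The libraries held 73128996 to 81500061 counted reads, of which 4.64 to 7.87% were mitochondrial in the knockout-labelled libraries, against 7.44 and 8.18% in WT. Stc1, which encodes the hormone stanniocalcin 1, had 3.67 and 68.4 CPM in Stc1-labelled, 13.2 and 5.95 CPM in Pygo1-labelled and 13.5 and 12.4 CPM in Rlim-labelled libraries, against 3.84 and 3.15 CPM in WT. Pygo1, a Wnt coactivator, had 1.79 and 10.5 CPM in Stc1-labelled, 2.5 and 0.674 CPM in Pygo1-labelled and 3.15 and 2.62 CPM in Rlim-labelled libraries, against 2.49 and 2.44 CPM in WT. Rlim, an X-linked ubiquitin ligase that acts in X inactivation, had 33.9 and 75.8 CPM in Stc1-labelled, 53.1 and 34.2 CPM in Pygo1-labelled and 71.9 and 64.2 CPM in Rlim-labelled libraries, against 57.2 and 51.4 CPM in WT. Of the 3 targeted genes, Pygo1 alone was below both WT libraries in a library named after it, the second. The highest Stc1, Pygo1 and Rlim values all stood in the second library labelled Stc1, and in the pooled test the 3 targets had adjusted p of 0.386, 0.837 and 0.98 (edgeR quasi-likelihood test, Benjamini-Hochberg). A gene count cannot show a frameshift, so the names below are those of the labels. Of 11 fibroblast markers, Fn1 and Vim were abundant, while Col1a2, Col3a1, Lum, Pdgfrb and Thy1 stayed under 1 CPM in all 8 libraries. The kidney epithelial markers Cdh16, Pax2 and Pax8 summed with 8 others to 2760 to 4150 CPM in knockout-labelled libraries, against 3460 and 3620 CPM in WT. Of that list, Krt18 and Krt19 stayed under 1 CPM in all 8 libraries, and Krt8, Cldn4 and Epcam reached at most 1.68, 1.002 and 2.67 CPM. Cdh1, E-cadherin, had 20.1 and 6.36 CPM in Stc1-labelled, 0.201 and 0.344 CPM in Pygo1-labelled and 0.498 and 0.514 CPM in Rlim-labelled libraries, against 9.52 and 8.91 CPM in WT. None of the 50 autosomal markers tested over 10 cell type lists was called by edgeR, with 10 higher and 2 lower at an unadjusted p under 0.05, 3 higher and 1 lower by DESeq2 and 16 and 6 by limma voom. Over all 17157 autosomal genes, 2204 had an unadjusted p under 0.05 by edgeR, in either direction. Endothelial markers summed to 3.28 to 103 CPM in knockout-labelled libraries, against 2.66 and 3.26 CPM in WT, with Cdh5, VE-cadherin, at 100.3 CPM in the second Stc1-labelled library. T and B lymphocyte markers summed to 0.141 to 0.263 CPM, against 0.0651 and 0.0752 CPM in WT, with Cd3e and Cd3g at 0 in all 8 libraries. The part of either in the results was not tested.

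Of 17157 autosomal genes tested, 44 were shared and higher in the knockout-labelled libraries, or 0.256%, and 37 were shared and lower, or 0.216%, which is 0.472% in all. The 81 genes were every autosomal gene that passed the test, since each of them had the 6 libraries on 1 side of both WT values. Without the test, all 6 libraries lay above both WT libraries in 1639 autosomal genes (9.55%) and below both in 1555 (9.06%). The counts of list members on 1 side, given below, are to be read beside these shares. Of the 44 higher genes, 40 changed at least 2-fold and 21 at least 4-fold, with a median of 3.67-fold. Of the 37 lower genes, 25 fell at least 2-fold and 14 at least 4-fold, with a median of 2.74-fold. Protein-coding genes made up 38 of the 44 and 33 of the 37. Each of the 19 autosomes held at least 1 of the 81 genes.

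**Figure D1:**
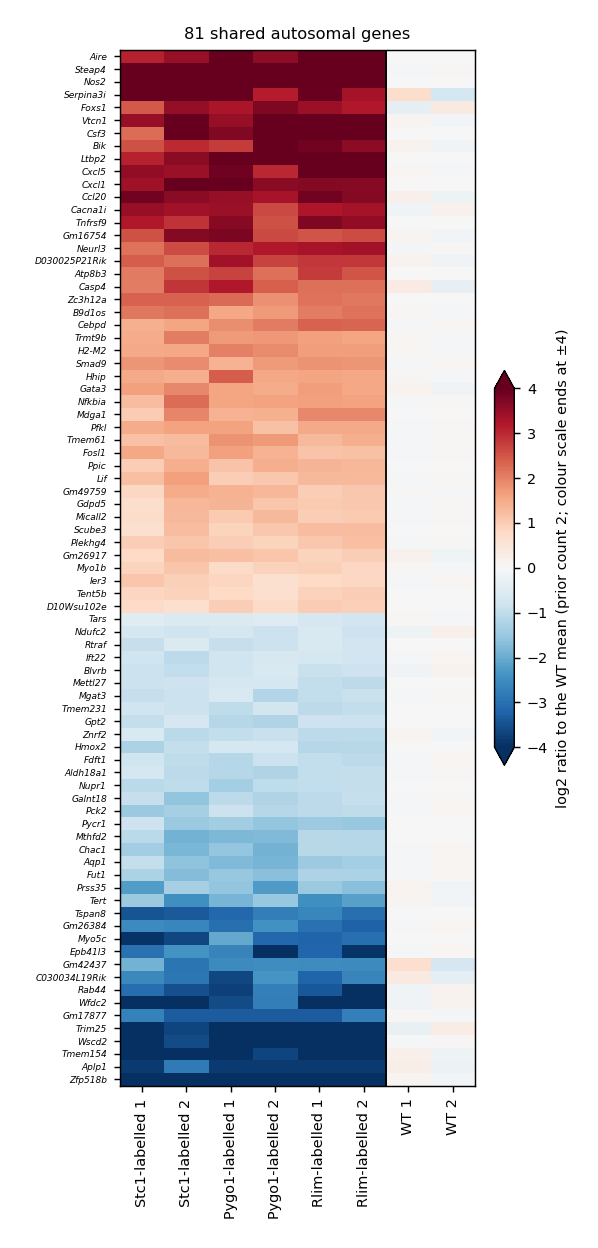
Each line is 1 of the 81 shared autosomal genes and each column 1 library, knockout-labelled to the left of the vertical line and WT to the right; colour is the log2 ratio to the mean of the WT libraries, red above and blue below, and ratios beyond 4 in size have the end colour. The 44 higher genes are at the top and the 37 lower genes at the bottom, and within a gene the 6 columns on the left have 1 colour while the WT columns are close to white.

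The number of calls depended on single libraries. Without WT 1 the test called 0 higher and 1 lower gene, and without WT 2 it called 0 and 0, although all 81 genes then kept their direction with an unadjusted p under 0.05. Genes with all edited libraries on 1 side at that unadjusted p numbered 507 higher and 405 lower without WT 1, and 514 and 311 without WT 2. With both libraries labelled Stc1 left out, 398 genes were higher and 410 lower; with both labelled Pygo1 left out, 25 and 22; with both labelled Rlim left out, 8 and 5. Leaving out 1 library gave 98 and 95 without Stc1 library 1, 118 and 85 without Stc1 library 2, 24 and 16 without Pygo1 library 1, and 16 and 8 or 16 and 7 without Rlim library 1 or 2. Of the 33 shared genes described by name under the selection rule, 0 kept their call without either WT library, and 33, 33, 20, 25, 16 and 15 kept it without the first and second library labelled Stc1, Pygo1 and Rlim in turn. Without both Rlim-labelled libraries 8 of the 33 kept it, namely Nos2, Cxcl1, Cxcl5, Ccl20, Zc3h12a, Fosl1, Ltbp2 and Chac1. The Rlim-labelled pair was close to a repeat, with a median absolute log2 difference per gene of 0.059, against 0.097 within WT, 0.19 within Pygo1 and 0.35 within Stc1. DESeq2 called 379 higher and 228 lower genes under the same rule, and limma voom with library weights 1210 and 1159. For marker and gene lists, DESeq2 and voom counts used adjusted p and direction alone, without the rule on sides. Counts at an unadjusted p also lacked that rule. No DESeq2 or voom total without that rule is given here, so list counts and totals are not 1 measure. The labels give no passage, harvest or run, so editing and any other difference between the WT pair and the 6 edited libraries cannot be told apart.

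Secreted attractants of neutrophils and growth factors of myeloid cells were among the strongest rises. Cxcl1, a ligand of the neutrophil receptor Cxcr2 (chr5:90891241-90893115, GRCm38), had 61.6 and 99.995 CPM in Stc1-labelled, 94.8 and 71.7 CPM in Pygo1-labelled and 75.4 and 72.5 CPM in Rlim-labelled libraries, against 5.73 and 5.96 CPM in WT. The lowest of the 6 values lay 10.3-fold above the higher WT value, and the log2 fold change was 3.76 ± 0.24 (edgeR quasi-likelihood test, Benjamini-Hochberg adjusted p = 0.00124). Cxcl5, a neighbouring gene on chromosome 5 whose product binds the same receptor, had 244 and 231 CPM in Stc1-labelled, 310.3 and 169.6 CPM in Pygo1-labelled and 419.7 and 415 CPM in Rlim-labelled libraries, against 22.2 and 19.7 CPM in WT. Its lowest edited library still stood 7.64-fold above the higher WT library, and its change was 3.83 ± 0.42 (edgeR adjusted p = 0.00932). Ccl20, the ligand of Ccr6 on lymphocytes and dendritic cells, had 4.81, 4.11, 3.76, 3.3, 4.86 and 4.23 CPM in edited libraries, against 0.365 and 0.263 CPM in WT. The 6 values spanned 1.47-fold and did not overlap WT, with a change of 3.73 ± 0.28 (edgeR adjusted p = 0.00257).

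Csf3, which encodes the granulocyte growth factor G-CSF, was more variable, at 2.69 and 15.2 CPM in Stc1-labelled, 7.49 and 9.26 CPM in Pygo1-labelled and 9.61 and 10.8 CPM in Rlim-labelled libraries, against 0.56 and 0.539 CPM in WT. The first Stc1-labelled library was the lowest of the 6 and the second the highest, and all of them exceeded WT (4.06 ± 0.64, edgeR adjusted p = 0.0381). Lif, a cytokine of the interleukin 6 family, had 44.8, 61.2, 38.2, 41.5, 47.6 and 48.2 CPM in edited libraries, against 18.9 and 20.1 CPM in WT, a smaller rise without overlap (1.27 ± 0.18, edgeR adjusted p = 0.0283). Of 36 cytokines and chemokines tested, these 5 rose by edgeR and none fell, while DESeq2 called 14 higher and voom 18 higher and 4 lower. Voom called 15 higher and 0 lower when all 6 libraries had to lie on 1 side. The edgeR count was 0 without either WT library, 3 without either Rlim-labelled library, and 8 and 9 without the first and second Stc1-labelled library. In 16 all 6 edited libraries lay above both WT libraries and in none did all 6 lie below. The median log2 fold change of the list was 0.94, against 0.034 over all autosomal genes. Several members missed the threshold, and these were named after their values were seen. The monocyte attractant Ccl2 had 145, 380.2, 313, 267, 218 and 222 CPM in edited libraries, against 67.5 and 65 CPM in WT. For Ccl2 the log2 ratio was 1.96 ± 0.34 (edgeR adjusted p = 0.0558). Csf2, which encodes GM-CSF, had 0.166 to 1.02 CPM in edited libraries, against 0.0125 and 0.026 CPM in WT. For Csf2 the log2 ratio was 5.05 ± 0.88 (edgeR adjusted p = 0.0558). The cytokine gene Tnf and the chemokine gene Cxcl2 were at low levels. Tnf had 0.0881 to 0.385 CPM in edited libraries, against 0.013 and 0.0501 CPM in WT. Cxcl2 had 0.333 to 1.39 CPM in edited libraries, against 0.0251 and 0.0521 CPM in WT. The summed CPM of 10 macrophage markers was 85.9 to 113 in knockout-labelled libraries, against 104 and 111 in WT. Most of it was Cd14 and Csf1r, which both overlapped WT, while 6 of the 10 stayed under 1 CPM in all 8 libraries. Cd68 had 2.64 to 7.61 CPM in edited libraries, against 1.81 and 2.39 CPM in WT. The summed CPM of 8 neutrophil markers was 0.812 to 1.88, against 0.951 and 0.977 in WT, with the neutrophil genes Camp, Retnlg and S100a9 at 0 in all 8 libraries. In bulk RNA a change in the share of cells that express a gene and a change in RNA per cell cannot be told apart.

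Among rises that averaged 5 CPM or more, the widest gaps to WT belonged to a nitric oxide enzyme and a metal reductase. Nos2, the inducible nitric oxide synthase (chr11:78920787-78960254, GRCm38), had 122 and 338 CPM in Stc1-labelled, 348 and 191 CPM in Pygo1-labelled and 191 and 202 CPM in Rlim-labelled libraries, against 5.13 and 4.99 CPM in WT. Even the lowest edited library, the first labelled Stc1, stood 23.6-fold above the higher WT library, and the fitted rise was 45.8-fold, or 5.52 ± 0.51 on the log2 scale (edgeR adjusted p = 0.005). Steap4, a plasma membrane and Golgi metalloreductase that reduces iron and copper (chr5:7960457-7982213, GRCm38), had 19 and 23.8 CPM in Stc1-labelled, 66 and 24.8 CPM in Pygo1-labelled and 48.3 and 43.1 CPM in Rlim-labelled libraries, against 0.716 and 0.777 CPM in WT. The WT pair was below 1 CPM, and the gap to the lowest edited library was again 23.6-fold (50.1-fold, 5.65 ± 0.64, edgeR adjusted p = 0.0098). Nos2 and Steap4 were the 2 of 30 acute phase, iron and nitric oxide genes that rose by edgeR, and DESeq2 called 7 higher and voom 15 higher and 1 lower. Of the 30, 10 lay above both WT libraries in all 6 edited libraries and none below, and the list median was 0.55.

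Acute phase genes of that list varied widely among the edited libraries and missed the threshold. Lcn2, the siderophore-binding protein lipocalin 2, had 265 and 269 CPM in Stc1-labelled, 1136 and 913 CPM in Pygo1-labelled and 1073 and 1104 CPM in Rlim-labelled libraries, against 61.5 and 62.1 CPM in WT. For Lcn2 the log2 ratio was 3.68 ± 0.73 (edgeR adjusted p = 0.0912). Saa3, a serum amyloid A gene made outside the liver, had 19.3 and 64.3 CPM in Stc1-labelled, 307 and 107 CPM in Pygo1-labelled and 129.6 and 133 CPM in Rlim-labelled libraries, against 3.01 and 3.11 CPM in WT. For Saa3 the log2 ratio was 5.37 ± 1.06 (edgeR adjusted p = 0.0887). In both genes the 2 libraries labelled Stc1 were the lowest of the 6, and all 6 were above WT. The Saa genes are near copies, so reads may have been split among them by the authors' counting.

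**Figure D2:**
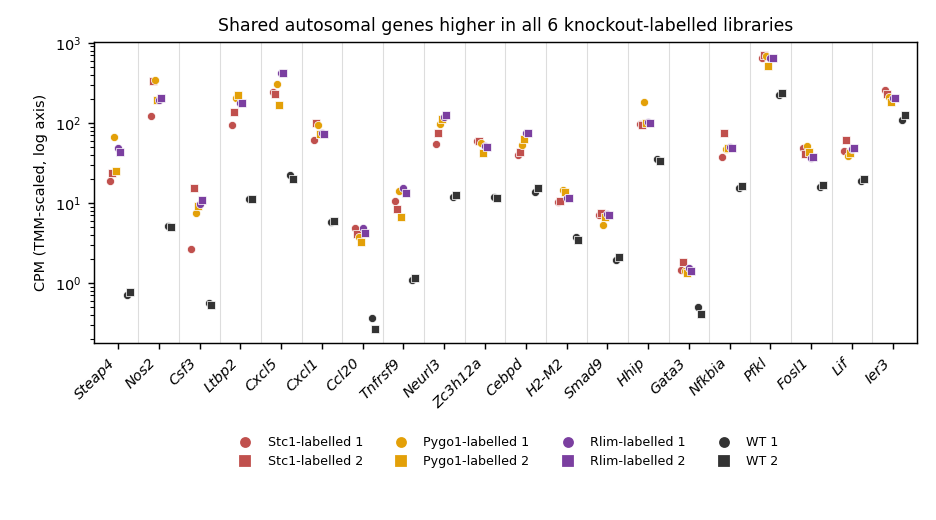
Points are single libraries, with scaled CPM on a log axis, for the 20 higher shared genes taken by the selection rule; for each gene the 6 knockout-labelled libraries are on the left, coloured by label, and the WT pair on the right in black, with circles for the first and squares for the second library of a pair. In every gene the 6 coloured points lie above both black points, by the widest margin in Steap4 and Nos2 and by the narrowest in Ier3.

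Regulators that restrain NF-kB rose with the ligands. Zc3h12a, the endonuclease Regnase-1 that degrades inflammatory mRNAs, had 59.6 and 60.1 CPM in Stc1-labelled, 56.1 and 41.5 CPM in Pygo1-labelled and 52.2 and 49.8 CPM in Rlim-labelled libraries, against 11.7 and 11.4 CPM in WT. The 6 values spanned 1.45-fold and lay 3.54-fold or more above WT (2.2 ± 0.17, edgeR adjusted p = 0.00257). Nfkbia, which encodes the inhibitor IkB-alpha that holds NF-kB in the cytoplasm, had 37.2 and 74.3 CPM in Stc1-labelled, 47.8 and 48.4 CPM in Pygo1-labelled and 49.5 and 48.4 CPM in Rlim-labelled libraries, against 15.3 and 16.5 CPM in WT. The second Stc1-labelled library was the highest, the first the lowest, and none overlapped WT (1.68 ± 0.25, edgeR adjusted p = 0.0283). These were the 2 of 22 NF-kB subunits and feedback inhibitors that rose by edgeR, and none fell, while DESeq2 called 6 higher and voom 15. The edgeR count was 0 without either WT library, 1 without any 1 library labelled Pygo1 or Rlim, and 5 without the second Stc1-labelled library. In 15 of the 22 all 6 edited libraries exceeded both WT libraries, in none were all 6 below, and the list median was 0.54. Among the 15, Tnfaip3, which encodes the deubiquitinase A20, had 20.7, 41.5, 31.4, 26.8, 17.3 and 16.5 CPM in edited libraries, against 9.29 and 8.38 CPM in WT. For Tnfaip3 the log2 ratio was 1.54 ± 0.37 (edgeR adjusted p = 0.153). Rela, the transactivating subunit, had 377 to 509 CPM in edited libraries, against 313 and 336 CPM in WT. For Rela the log2 ratio was 0.42 ± 0.14 (edgeR adjusted p = 0.264). Nfkb1, by contrast, overlapped WT, with 107, 88.2, 305, 294, 174 and 167 CPM in edited libraries, against 136 and 134 CPM in WT.

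Genes of a receptor, a ubiquitin ligase and transcription factors also rose. Tnfrsf9, the costimulatory receptor 4-1BB, had 10.5, 8.43, 14.1, 6.69, 15.2 and 13.3 CPM in edited libraries, against 1.09 and 1.14 CPM in WT, a rise without overlap (3.35 ± 0.38, edgeR adjusted p = 0.0098). It was the 1 of 41 cytokine receptors that rose by edgeR, and none fell, while DESeq2 called 5 higher and voom 12 higher and 7 lower. Of the 41, 9 lay above and 3 below WT in all 6 libraries, against 9.55 and 9.06% of all autosomal genes. The list median was 0.21. Neurl3, a ubiquitin ligase of the neuralized family, had 54.8, 73.8, 96.7, 111, 119.7 and 124 CPM in edited libraries, against 11.7 and 12.4 CPM in WT. For Neurl3 the log2 ratio was 3.0 ± 0.35 (edgeR adjusted p = 0.00981). Cebpd, a transcription factor of acute phase and cytokine genes, had 39.6 and 43.6 CPM in Stc1-labelled, 53.4 and 62.3 CPM in Pygo1-labelled and 75.5 and 74.4 CPM in Rlim-labelled libraries, against 13.8 and 15.5 CPM in WT. Its level was lowest in the Stc1-labelled and highest in the Rlim-labelled pair, and all exceeded WT (1.98 ± 0.29, edgeR adjusted p = 0.0283). Fosl1, an AP-1 subunit, had 36.2 to 51.5 CPM in edited libraries, against 16 and 17 CPM in WT. For Fosl1 the log2 ratio was 1.38 ± 0.17 (edgeR adjusted p = 0.0129). Ier3, an early response gene that modulates cell survival, had 181 to 254 CPM in edited libraries, against 110.2 and 124 CPM in WT. For Ier3 the log2 ratio was 0.87 ± 0.14 (edgeR adjusted p = 0.0435). Fosl1 and Ier3 were the 2 of 37 immediate early and AP-1 genes that rose by edgeR, and DESeq2 called 2 higher and voom 8 higher and 4 lower. Of these 37, 6 were above and 5 below WT in all 6 libraries, against 9.55 and 9.06% of all autosomal genes. The list median was 0.020. Exons of Cebpd overlap Spidr and those of Fosl1 overlap Ccdc85b, and no source used here gives the strand setting of the counting, so both are uncertain.

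Shared rises outside the inflammatory lists included matrix, hedgehog and BMP genes. Ltbp2, an elastic fibre protein of the latent TGF-beta binding family, had 94.7 and 136 CPM in Stc1-labelled, 203 and 221 CPM in Pygo1-labelled and 179 and 177 CPM in Rlim-labelled libraries, against 11.3 and 11.1 CPM in WT. The lowest edited library stood 8.4-fold above WT (15.1-fold, 3.91 ± 0.36, edgeR adjusted p = 0.005). The predicted gene D030025P21Rik, whose exons overlap those of Ltbp2, was also shared and higher, and their reads cannot be told apart without strand. Ltbp2 was the 1 of 53 matrix genes that rose by edgeR, and DESeq2 called 5 higher and 1 lower and voom 15 higher and 3 lower. Of the 53, 11 were above and 3 below WT in all 6 libraries, against 9.55 and 9.06% of all autosomal genes. Hhip, a membrane protein that binds and sequesters hedgehog ligands, had 97.8 and 94 CPM in Stc1-labelled, 184 and 101 CPM in Pygo1-labelled and 104 and 99.8 CPM in Rlim-labelled libraries, against 35.8 and 33 CPM in WT. The first Pygo1-labelled library was well above the other 5, which were themselves above WT (1.72 ± 0.29, edgeR adjusted p = 0.0435). With each chromosome scaled to WT the change was 1.72 and missed the threshold. Exons of Hhip overlap the predicted gene Gm27820. Smad9, a BMP-activated transducer, had 5.37 to 7.56 CPM in edited libraries, against 1.94 and 2.14 CPM in WT, a rise of 1.74 ± 0.196 (edgeR adjusted p = 0.0098). It was the 1 of 46 TGF-beta and BMP genes that rose by edgeR, and DESeq2 called 6 higher and voom 16 higher and 5 lower. H2-M2, a non-classical MHC class I gene, had 10.3 to 14.6 CPM in edited libraries, against 3.46 and 3.75 CPM in WT. For H2-M2 the log2 ratio was 1.74 ± 0.19 (edgeR adjusted p = 0.0096). Gata3, a transcription factor of the nephric duct, was low throughout, at 1.32 to 1.81 CPM in edited libraries, against 0.413 and 0.508 CPM in WT. Its rise was 1.69 ± 0.25 (edgeR adjusted p = 0.0283), and it overlaps 2 predicted genes.

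Pfkl, the liver-type phosphofructokinase that commits glucose to glycolysis, had 639 and 698 CPM in Stc1-labelled, 688 and 514 CPM in Pygo1-labelled and 645 and 649 CPM in Rlim-labelled libraries, against 222 and 233 CPM in WT. The 6 values spanned 1.36-fold, with the second Pygo1-labelled library lowest, and it still stood 2.21-fold above the higher WT library (1.49 ± 0.14, edgeR adjusted p = 0.00617). It was the 1 of 37 glycolysis and hypoxia genes that rose by edgeR, and none fell, while DESeq2 called 8 higher and voom 17 higher and 3 lower. Voom called 15 higher and 0 lower when all 6 libraries had to lie on 1 side. The edgeR count was 0 without either WT library, and 2 and 3 without the first and second Stc1-labelled library. In 19 of the 37 all 6 edited libraries exceeded WT and in none were all 6 below, with a list median of 0.48. Pdk1, the kinase that blocks pyruvate dehydrogenase, had 24.9, 36.8, 50.2, 23.7, 34.1 and 30.8 CPM in edited libraries, against 13.1 and 11.8 CPM in WT. For Pdk1 the log2 ratio was 1.42 ± 0.29 (edgeR adjusted p = 0.0979). Aldoa, glycolytic aldolase, had 3780.3 to 4832 CPM in edited libraries, against 2649 and 2828 CPM in WT. For Aldoa the log2 ratio was 0.64 ± 0.13 (edgeR adjusted p = 0.0958). Hk2, hexokinase 2, had 180.04 to 255 CPM in edited libraries, against 123 and 129 CPM in WT. For Hk2 the log2 ratio was 0.67 ± 0.15 (edgeR adjusted p = 0.127). These 3 members were named after their values were seen.

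Lower-expressed shared rises, also named after their values were seen, lay under a mean of 5 CPM or outside the selection. Vtcn1, the T cell inhibitory ligand B7-H4, had 4.43, 7.8, 4.38, 7.2, 7.24 and 6.59 CPM in edited libraries, against 0.404 and 0.338 CPM in WT. For Vtcn1 the log2 ratio was 4.07 ± 0.36 (edgeR adjusted p = 0.00425). Casp4, the caspase that senses cytosolic lipopolysaccharide, had 3.82, 6.8, 8.52, 4.9, 4.22 and 4.27 CPM in edited libraries, against 1.15 and 0.714 CPM in WT. For Casp4 the log2 ratio was 2.54 ± 0.41 (edgeR adjusted p = 0.0402). Both were separated from WT in all 6 libraries. Bik, a BH3-only protein that promotes apoptosis, had 0.388 to 1.32 CPM in edited libraries, against 0.0376 and 0.0521 CPM in WT. For Bik the log2 ratio was 4.03 ± 0.67 (edgeR adjusted p = 0.0455).

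Genes of amino acid metabolism were among the shared falls. Chac1, an ATF4 target that degrades glutathione, had 37.1 and 27.5 CPM in Stc1-labelled, 33.3 and 26 CPM in Pygo1-labelled and 44.7 and 44 CPM in Rlim-labelled libraries, against 90.7 and 103 CPM in WT. The highest edited library, the first labelled Rlim, stood 2.03-fold below the lower WT library (-1.45 ± 0.21, edgeR adjusted p = 0.0277). Nupr1, a small stress-induced nuclear protein, had 39.3, 41.1, 31.8, 40.6, 42 and 42.9 CPM in edited libraries, against 81.9 and 82.7 CPM in WT, the 6 values spanning 1.35-fold (-1.06 ± 0.12, edgeR adjusted p = 0.0098). Mthfd2, a mitochondrial enzyme of the folate cycle, had 44.4 and 25.3 CPM in Stc1-labelled, 27 and 27.3 CPM in Pygo1-labelled and 43.1 and 42 CPM in Rlim-labelled libraries, against 93.1 and 94.1 CPM in WT; the groups did not overlap (-1.43 ± 0.23, edgeR adjusted p = 0.043). These were the 3 of 49 ATF4 and unfolded protein response genes that fell by edgeR, and none rose, while DESeq2 called 9 lower and voom 28 lower and 2 higher. Voom called 24 lower and 0 higher when all 6 libraries had to lie on 1 side. The edgeR count was 0 without either WT library, 1 without the first Pygo1-labelled or second Rlim-labelled library, and 5 and 6 without the first and second Stc1-labelled library. In 25 of the 49 all 6 edited libraries were below both WT libraries and in none were all 6 above, with a list median of -0.34.

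Other members of that list missed the threshold and were named after their values were seen. Asns, asparagine synthetase, had 90.8, 45.1, 58.7, 44, 82.2 and 78.4 CPM in edited libraries, against 188 and 194 CPM in WT. For Asns the log2 ratio was -1.52 ± 0.27 (edgeR adjusted p = 0.0558). Trib3, a pseudokinase gene, had 28.2, 26.5, 29.8, 25.6, 40.4 and 42.7 CPM in edited libraries, against 57.5 and 66.8 CPM in WT. For Trib3 the log2 ratio was -0.95 ± 0.21 (edgeR adjusted p = 0.125). Atf4 itself had 381, 189, 303, 348, 383 and 377 CPM in edited libraries, against 482 and 534 CPM in WT. For Atf4 the log2 ratio was -0.62 ± 0.24 (edgeR adjusted p = 0.316). Hspa5, which encodes the chaperone BiP of the unfolded protein response, had 460.2, 382, 557, 625, 522 and 486 CPM in edited libraries, against 478 and 441 CPM in WT. Ddit3, which encodes CHOP, had 36.2, 30.5, 33.5, 27.4, 37.1 and 38.7 CPM in edited libraries, against 26.8 and 28.6 CPM in WT, and the groups overlapped in both genes.

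Enzymes of proline synthesis and of mitochondrial carbon metabolism also fell. Aldh18a1, which makes the proline precursor pyrroline-5-carboxylate from glutamate, had 234 and 183 CPM in Stc1-labelled, 171 and 166 CPM in Pygo1-labelled and 190.4 and 196 CPM in Rlim-labelled libraries, against 366 and 395 CPM in WT. The first Stc1-labelled library was the highest of the 6 and still below WT (-1.0 ± 0.13, edgeR adjusted p = 0.0249). Pycr1, which reduces that precursor to proline, had 9.85 and 6.27 CPM in Stc1-labelled, 6.66 and 5.99 CPM in Pygo1-labelled and 6.44 and 6.08 CPM in Rlim-labelled libraries, against 17.3 and 17.9 CPM in WT. For Pycr1 the log2 ratio was -1.35 ± 0.197 (edgeR adjusted p = 0.0283). Pck2, the mitochondrial phosphoenolpyruvate carboxykinase, had 117 and 131 CPM in Stc1-labelled, 179.5 and 149 CPM in Pygo1-labelled and 158 and 162 CPM in Rlim-labelled libraries, against 315 and 344 CPM in WT. For Pck2 the log2 ratio was -1.14 ± 0.15 (edgeR adjusted p = 0.0261). With each chromosome scaled to WT the change of Pck2 was -0.92 and missed the threshold, and its exons overlap the predicted gene Gm10876. The median gene of chromosome 14, which holds Pck2 and Fdft1, differed from the WT mean by -0.336 and -0.244 (log2) in Stc1-labelled libraries, -0.366 and -0.314 in Pygo1-labelled and -0.008 and -0.055 in Rlim-labelled libraries. The 3 enzymes had no edited library at or above WT. Gpt2, mitochondrial alanine aminotransferase, had 61.3 to 88.4 CPM in edited libraries, against 139 and 144 CPM in WT. For Gpt2 the log2 ratio was -0.93 ± 0.14 (edgeR adjusted p = 0.0332). Tars, the threonyl-tRNA synthetase, had 49.3 to 59.4 CPM in edited libraries, against 81.3 and 85.3 CPM in WT. For Tars the log2 ratio was -0.599 ± 0.101 (edgeR adjusted p = 0.0484). In a list of 24 proline, serine and one-carbon enzymes put together after these values were seen, 5 fell, 12 were below WT in all 6 libraries and none above. Phgdh, which starts serine synthesis, overlapped WT, with 582, 1030.03, 629, 903, 605 and 639.6 CPM in edited libraries, against 746 and 829.7 CPM in WT. Of 20 cytosolic tRNA synthetases, a list also chosen afterwards, Tars fell and 8 were below WT in all 6 libraries with none above. Of 17 mitochondrial ones none was called (edgeR), 3 were above and 1 below.

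**Figure D3:**
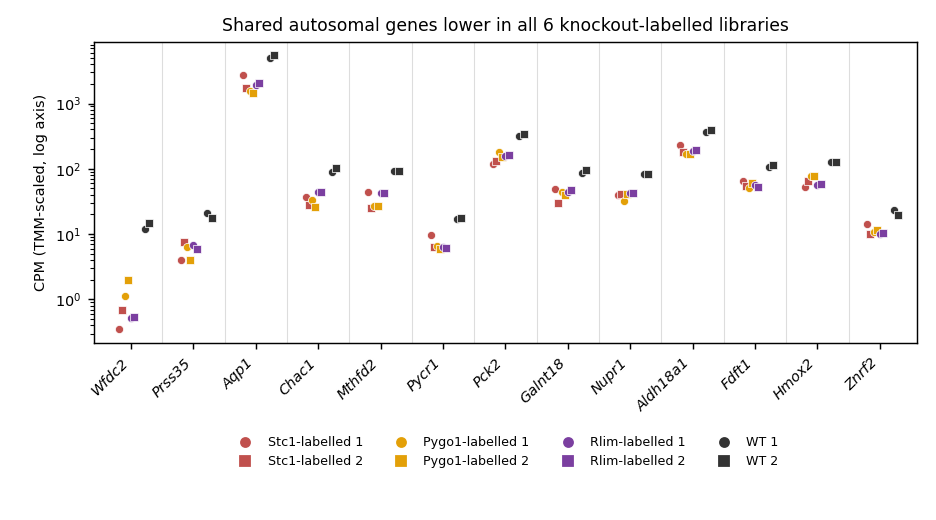
Points are single libraries, with scaled CPM on a log axis, for the 13 lower shared genes taken by the selection rule; the 6 knockout-labelled libraries of each gene are on the left, coloured by label, and the WT pair on the right in black, with circles for the first and squares for the second library of a pair. All coloured points lie below both black points, with the widest spread among edited libraries in Wfdc2 and a nearly level set in Fdft1.

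Sterol synthesis was represented by Fdft1, squalene synthase, the first enzyme committed to sterols, with 64.2 and 54.9 CPM in Stc1-labelled, 50.5 and 60.9 CPM in Pygo1-labelled and 55.6 and 53.5 CPM in Rlim-labelled libraries, against 105 and 116 CPM in WT. The 6 values spanned 1.27-fold and the nearest stood 1.64-fold below WT (-0.97 ± 0.11, edgeR adjusted p = 0.00981). With each chromosome scaled to WT it was -0.74 and missed the threshold. Its exons overlap Ctsb, which leaves it uncertain without strand. It was the 1 of 30 cholesterol genes that fell by edgeR, and none rose, while DESeq2 called 8 lower and voom 25 lower and 1 higher. Voom called 17 lower and 1 higher when all 6 libraries had to lie on 1 side. The edgeR count was 0 without either WT library, and 5 and 4 without the first and second Stc1-labelled library. Of the 30, 17 had all 6 libraries below WT, 2 had all 6 above, and the list median was -0.49. Insig1, the endoplasmic reticulum anchor of the sterol sensor, was the first autosomal gene past the threshold, with 16, 12.8, 10.5, 10.4, 15.7 and 15 CPM in edited libraries, against 28.8 and 28.6 CPM in WT. For Insig1 the log2 ratio was -1.1 ± 0.19 (edgeR adjusted p = 0.0537). Plekhg4, with 3.72 to 4.68 CPM in edited libraries, against 1.94 and 2.08 CPM in WT, was the last gene within it (edgeR adjusted p = 0.0498), and its exons overlap Kctd19. The SREBP2 target Sqle, squalene epoxidase, had 69 to 117 CPM in edited libraries, against 151 and 153 CPM in WT (edgeR adjusted p = 0.166).

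Genes of mixed roles were among the other shared falls. Wfdc2, a secreted whey acidic protein family member, had 0.346 and 0.692 CPM in Stc1-labelled, 1.12 and 1.97 CPM in Pygo1-labelled and 0.511 and 0.54 CPM in Rlim-labelled libraries, against 12.2 and 15 CPM in WT. The second Pygo1-labelled library was the highest of the 6, 6.12-fold below the lower WT library (15.7-fold lower, -3.98 ± 0.52, edgeR adjusted p = 0.0223). Aqp1, the water channel of the proximal tubule, was the most abundant shared gene, with 2704 and 1739 CPM in Stc1-labelled, 1544 and 1452 CPM in Pygo1-labelled and 1927 and 2059.6 CPM in Rlim-labelled libraries, against 5048 and 5471 CPM in WT. No edited library reached WT (-1.47 ± 0.21, edgeR adjusted p = 0.0277). It was the 1 of 43 kidney tubule transport genes that fell by edgeR, and none rose, while DESeq2 called 2 higher and 4 lower and voom 8 higher and 11 lower. Of the 43, 5 were above and 6 below WT in all 6 libraries, where the shares over all autosomal genes were 9.55 and 9.06%. Prss35, a secreted protease-like protein, had 3.96 to 7.61 CPM in edited libraries, against 17.4 and 20.9 CPM in WT. For Prss35 the log2 ratio was -1.73 ± 0.25 (edgeR adjusted p = 0.0283). Galnt18, a glycosyltransferase family member, had 30.3 to 48.4 CPM in edited libraries, against 87.2 and 94.7 CPM in WT. For Galnt18 the log2 ratio was -1.1 ± 0.16 (edgeR adjusted p = 0.0319). Znrf2, a ubiquitin ligase of endosomes, had 10.1 to 14.1 CPM in edited libraries, against 19.6 and 23.1 CPM in WT. For Znrf2 the log2 ratio was -0.94 ± 0.16 (edgeR adjusted p = 0.0465). Hmox2, the constitutive haem oxygenase, had 52.7, 64.7, 77, 78.5, 56.9 and 58.7 CPM in edited libraries, against 126 and 127 CPM in WT. For Hmox2 the log2 ratio was -0.97 ± 0.16 (edgeR adjusted p = 0.0435). Exons of Hmox2 overlap Cdip1. Blvrb, which reduces biliverdin, a product of haem breakdown, had 12.5 to 16 CPM in edited libraries, against 22.3 and 27.4 CPM in WT. For Blvrb the log2 ratio was -0.84 ± 0.13 (edgeR adjusted p = 0.0402). Tert, the catalytic subunit of telomerase, had 2.04, 1.02, 1.56, 1.97, 1.01 and 1.23 CPM in edited libraries, against 6.11 and 5.31 CPM in WT. For Tert the log2 ratio was -1.95 ± 0.29 (edgeR adjusted p = 0.0322). Blvrb and Tert were named after their values were seen.

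Aqp1, Mthfd2 and Znrf2 are on chromosome 6, where libraries differed in the share of RNA reads from each parental genome. The median share of genome 2 in reads of chromosome 6 genes was 28.5 and 40.7% in Stc1-labelled libraries, 5.06 and 0.216% in Pygo1-labelled and 0.279 and 0.218% in Rlim-labelled libraries, against 28 and 28.1% in WT. The median gene of chromosome 6 differed from the WT mean by -0.019 and -0.37 (log2) in Stc1-labelled libraries, -0.35 and -0.33 for Pygo1 and -0.358 and -0.375 for Rlim. With each chromosome scaled to WT, Aqp1 kept its call at -1.18, while Mthfd2 at -1.13 and Znrf2 at -0.65 missed it.

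Some shared genes came near to silence: 12 averaged under 0.2 CPM in the edited libraries and fell at least 8-fold, and 5 of them are described here, chosen after their values were seen. Zfp518b, a zinc finger gene, had no read in any of the 6 edited libraries, against 63 and 71 reads in WT, and with 3 reads as the floor over the 6 libraries it was at least 129-fold lower in them. Trim25, a ubiquitin ligase that acts in RIG-I signalling, had 2, 4, 0, 1, 1 and 2 reads in knockout-labelled libraries, against 62 and 97 in WT, where its rate was 46.1 times higher (95% interval 24.4 to 97.9). Tmem154, a membrane protein gene, had 5 reads over the 6 libraries, against 104 over the WT pair, or 60.2 times more in WT (25 to 189). Wscd2 had 21 reads, against 368 in WT, or 50.8 times more in WT (32.7 to 83). Aplp1, of the amyloid precursor family, had 2 reads, against 55 in WT, or 79.7 times more in WT (21 to 674). Intervals are exact binomial, pool the libraries of each side and cover counting error only. The same reads chose these genes for low values in the edited libraries, and the expression filter could be passed through the WT pair alone. The folds and intervals therefore describe the chosen genes and are no test of the falls. All of these genes were at or under 2.41 CPM in WT, so the reads at stake were few.

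The shared changes were also fitted label by label. Fitted for each label against the same WT pair, the 44 higher genes had median log2 fold changes of 1.85 for Stc1, 1.97 for Pygo1 and 2.03 for Rlim. For the 37 lower genes the medians were -1.43, -1.69 and -1.27. These comparisons share their WT libraries, and the genes were chosen on the same libraries. Of the 44, 25 were called for Stc1, 40 for Pygo1, 35 for Rlim and 25 for all 3, where 0.286, 1.58 and 0.81% of autosomal genes were called higher for these labels. Of the 37, the numbers were 12, 26, 22 and 12, where 0.291, 0.781 and 0.6% were called lower. A test of any difference between the 3 labels called 399 autosomal genes, or 2.33%, among them Cebpd alone of the 81 shared genes (edgeR adjusted p = 0.0478). At an unadjusted p under 0.05 the labels differed in 5 of the 44 higher genes, Cebpd included, and in 6 of the 37 lower genes. Cebpd had log2 fold changes of 1.5 for Stc1, 1.98 for Pygo1 and 2.35 for Rlim. With the first or second Stc1-labelled library left out, 15 and 13 of the 81 differed between labels; with either WT or either Rlim-labelled library left out, none did. The median spread between the highest and lowest of the 6 edited libraries was 1.61-fold in higher and 1.68-fold in lower shared genes.

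Reads that carry a base particular to 1 parent were also counted apart. Which parent is called genome 1 is not stated. Among the higher shared genes, 30 were tested in both genomes and all 30 were positive in both. Of the lower ones, 28 were tested in both and all 28 were negative in both. The genes were chosen by direction in all reads, which include these, so the agreement is not a separate test. The shared rule was met in both genomes by 8 of the 30 and 3 of the 28. Neighbours of each shared gene were the nearest genes that used both genomes in WT, 5 on each side. For 6 higher and 15 lower shared genes, the median neighbour drew over 90% of genome-assigned reads from 1 genome in at least 1 edited library. The same share over all autosomal genes is not given here, so these numbers do not set the shared genes apart. In reads of genome 1, 26 autosomal genes were shared and higher (0.197%) and 90 lower (0.682%); in reads of genome 2, 28 were higher (0.212%) and 114 lower (0.864%). Counts of Nos2 rose by 5.32 in genome 1 reads and 5.68 in genome 2 reads (edgeR adjusted p = 0.00528 and 0.00703). Nos2 is on chromosome 11, where the median gene had 0.879 to 1.77% of its reads from genome 1 over all libraries. Genome 1 made up 12.49 to 15.05% of Nos2 reads in edited libraries, against 14.88 and 19.44% in WT. Whether those reads were assigned to the right genome was not tested. Pfkl rose by 1.52 and 1.47 (edgeR adjusted p = 0.00602 and 0.00977). Steap4 drew on genome 1: those reads made up 94.5 to 99.9% of its genome-assigned reads in knockout-labelled libraries, against 73.1 and 76.9% in WT. In the second Pygo1-labelled library, at 99.9%, the median of neighbouring genes (5 on each side) was also 99.8%. Elsewhere that median was 70.1 to 79.1% in edited libraries, against 70.9 and 71.2% in WT. Steap4 had as few as 39 genome-assigned reads in 1 library. Its change was 6.04 in genome 1 reads and 2.74 in genome 2 reads (edgeR adjusted p = 0.00654 and 0.68), and the difference between the genomes was not tested. Nupr1 fell by 0.85 and 1.16 on the log2 scale (edgeR adjusted p = 0.0241 and 0.0224). Reads of 1 genome are a part of the same libraries and not separate evidence.

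Falls in single-genome reads were concentrated on 2 chromosomes. Of the 90 genes lower in genome 1 reads, 73 lay on chromosome 11, which held 739 of the 13201 genes tested. Of the 114 lower in genome 2 reads, 91 lay on chromosome 9, which held 425 of the 13193 tested. None of the 425 was called higher, and 2 of the 739 were. The expression filter asked for reads in as few as 2 libraries, so genes could enter through the WT pair alone. How many did was not counted, so these concentrations are no test of either chromosome. The medians below instead used genes with at least 50 genome-assigned reads in every library. Patski cells drew almost all reads of each of these chromosomes from 1 genome. The median gene of chromosome 9 had 0.14 and 0.119% of its genome-assigned reads from genome 2 in Stc1-labelled libraries, 0.128 and 0.0748% in Pygo1-labelled and 0.141 and 0.138% in Rlim-labelled libraries, against 1.35 and 1.34% in WT. For genome 1 on chromosome 11 the shares were 0.879 to 0.994% in knockout-labelled libraries, against 1.61 and 1.77% in WT. All 6 edited libraries thus lay below both WT libraries on both chromosomes. On chromosome 4, which also drew on almost only 1 genome, they overlapped, at 1.17 to 1.41% against 1.1 and 1.27% in WT. Some chromosomes that drew on both genomes in WT also had all 6 edited libraries on 1 side. Their median genome 2 share was 41.9 to 45.2% on chromosome 13, against 36.4 and 36.3% in WT. On chromosome 18 it was 47.5 to 48.5%, against 49.6 and 50.3% in WT. On chromosome 19 it was 0.433 to 23.7%, against 24.6 and 24.4% in WT. Of the genes lower in genome 1 and genome 2 reads, 12 and 7 were also among the 37 shared in all reads, and 15 and 21 lay outside chromosomes 9 and 11. Without WT 1 or WT 2 no gene was called lower in genome 1 reads, and 8 or 2 in genome 2 reads.

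**Figure D4:**
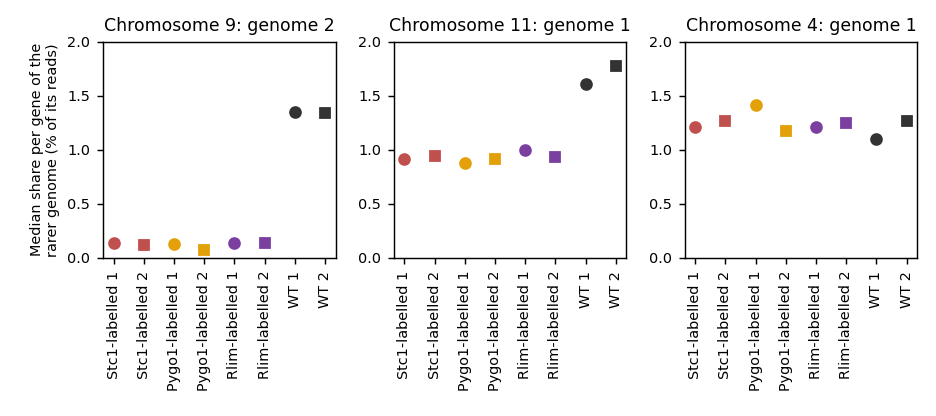
For chromosomes 9, 11 and 4, each point is 1 library and gives the median over genes of the share of genome-assigned reads that came from the rarer genome, in percent; knockout-labelled libraries are on the left, coloured by label, and WT on the right in black. On chromosome 9 the 6 edited libraries sit at 0.0748 to 0.141%, against 1.34 and 1.35% in WT, and on chromosome 11 at 0.879 to 0.994%, against 1.61 and 1.77%, whereas on chromosome 4 they overlap WT.

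Other lists held few or no shared genes. Over all 17157 autosomal genes, 9.55 and 9.06% lay above and below both WT libraries in all 6 edited ones. At an unadjusted p under 0.05 by edgeR, 2204 of them passed in either direction. Contractile genes had none called (edgeR), with 11 higher and 1 lower at an unadjusted p under 0.05, 6 higher by DESeq2 and 13 higher and 2 lower by voom. Of the 31, 12 lay above and 1 below WT in all 6 libraries, with a median of 0.33. Smooth muscle and pericyte markers summed to 268 to 693 CPM in knockout-labelled libraries, against 165 and 188 CPM in WT. Most of the sum was Acta2, smooth muscle actin, at 174 to 525 CPM, against 72.6 and 81.4 CPM, and Mcam, at 69.1 to 114.7 CPM, against 52.8 and 59.5 CPM. Cnn1 overlapped WT, at 9.72 to 47.7 CPM against 25 and 31.9 CPM, and so did Notch3, at 11.8 to 36.7 CPM against 12.7 and 13.6 CPM. Myh11, Rgs5 and Cspg4 stayed under 1 CPM. The part of these markers in the contractile list was not tested. Nuclear oxidative phosphorylation genes had none called by edgeR, 20 lower at an unadjusted p under 0.05, 2 lower by DESeq2 and 33 lower and 1 higher by voom. Of the 69, 22 were below and 1 above WT in all 6 libraries, with a median of -0.24. The share of mitochondrial reads, given above, was lower than both WT libraries in 5 of the 6 edited libraries. Cytosolic ribosomal protein genes had none called by edgeR, 13 lower at an unadjusted p under 0.05, 3 lower by DESeq2 and 63 by voom. Of the 81, 12 were below WT in all 6 libraries and none above, with a median of -0.25.

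Lists of DNA damage and cell cycle genes held no call by edgeR. Of all 17157 autosomal genes, 2204 had an unadjusted p under 0.05 by edgeR, in either direction. Of 37 p53 targets and CDK inhibitors none was called by edgeR, with 2 higher and 6 lower at an unadjusted p under 0.05, 2 lower by DESeq2 and 6 higher and 8 lower by voom, and a median of 0.047. Of 32 genes of the double-strand break response none was called by edgeR or DESeq2, with 2 higher at an unadjusted p under 0.05 and 5 higher and 3 lower by voom. Of 65 cell cycle genes none was called by edgeR or DESeq2, with 3 higher and 1 lower at an unadjusted p under 0.05, 10 higher and 3 lower by voom, and a median of 0.0035. Interferon-stimulated genes had none of 58 called by edgeR, with 10 higher and 2 lower at an unadjusted p under 0.05. DESeq2 called 6 higher and 1 lower, and voom 14 higher and 5 lower. All 6 libraries were above WT in 9 and below in 4, against 9.55 and 9.06% of all autosomal genes.

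**Figure D5:**
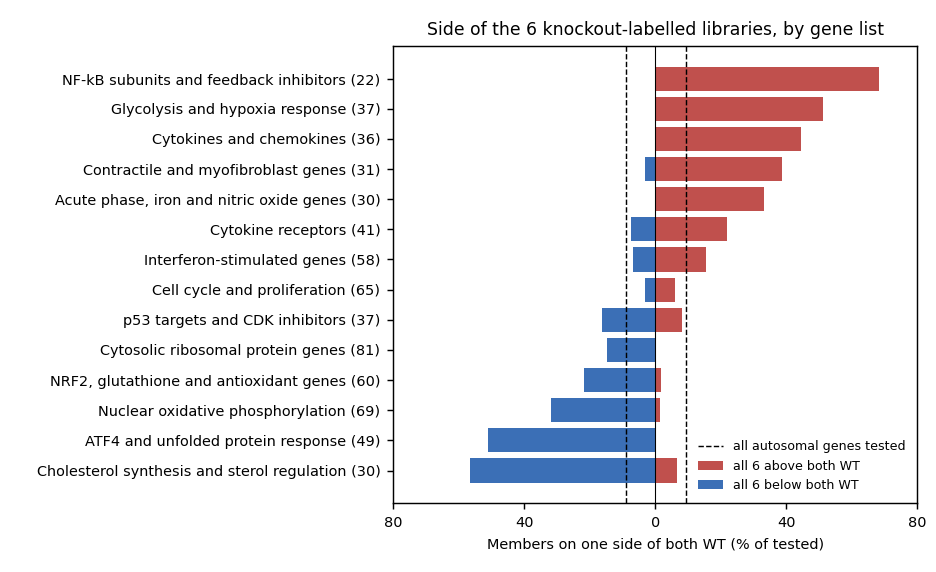
For each gene list, with the number of members tested in brackets, the bar to the right gives the percentage of members with all 6 knockout-labelled libraries above both WT libraries and the bar to the left the percentage with all 6 below; dashed lines mark the same shares over all autosomal genes tested, 9.55 and 9.06%. The NF-kB list, with 15 of 22 above, and the glycolysis list, with 19 of 37 above, reach farthest right, and the cholesterol list, with 17 of 30 below, and the ATF4 list, with 25 of 49 below, farthest left.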

How the data were processed

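RNA was extracted with Trizol, prepared with the TruSeq RNA kit and sequenced on an Illumina GAIIx. The submitters' processing notes name mm10, featureCounts, Cufflinks and HISAT2 2.0.5, without roles. Raw counts for Ensembl genes were deposited by the authors, for all assigned reads and for reads of genome 1 and of genome 2. Annotation version, strand setting and the tool that split genomes are not stated in the sources used here. Of 49670 genes, 49411 were matched to GENCODE M21 (GRCm38), and 0.0108 to 0.0139% of counts were unmatched. Reads of 1 genome were 50.64 to 52.64% of counts.

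The 6 knockout-labelled libraries were fitted against 2 WT libraries with edgeR 4.0.16 under R 4.3.3, using TMM factors, the default expression filter (17839 genes kept), a quasi-likelihood test and Benjamini-Hochberg adjustment over all genes. The common biological coefficient of variation was 32.8%. Genome reads used the same library sizes. Labels were compared in a fit with 1 mean per group. Replicate numbers were not used as pairs, and no label says that they mark a batch. Alternatives were DESeq2 1.42.0, limma 3.58.1 voom, other scalings, filters, thresholds and designs, and each library left out.

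Members and lists were chosen with earlier results of these data known. Named genes were the 3 targets and Xist; among shared genes averaging 5 CPM or more, the 12 largest changes and 8 largest gaps to WT in each direction; and up to 4 shared members per list. Predicted genes were passed over. Of 43 lists and families, those not described held 0 to 1 shared gene. Xist was 351 to 850 CPM in knockout-labelled libraries, against 759 and 783 CPM in WT (edgeR adjusted p = 0.52). Figures were drawn with matplotlib 3.10.9.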

Additional observations from a re-analysis of the deposited data

Results flagged for a closer look

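Among 42 sets of 6 knockout-labelled values, 8 held a library whose distance from the nearest of the others was large for the range of the set, past Dixon's 95% critical value for 6 values, where chance gives about 1 in 20. Stc1 stood at 68.4 CPM in the second Stc1-labelled library, with the next at 13.5 CPM, and Pygo1 at 10.5 CPM there, with the next at 3.15 CPM. Nfkbia was 74.3 CPM in the same library, with the next at 49.5 CPM. In the first Stc1-labelled library Pycr1 was 9.85 CPM, with the next at 6.66 CPM, and Znrf2 was 14.1 CPM, with the next at 11.4 CPM; both values were below WT. Hhip was 184 CPM in the first Pygo1-labelled library, with the next at 104 CPM, and Nupr1 was lowest there at 31.8 CPM, with the next at 39.3 CPM. Pfkl was lowest at 514 CPM in the second Pygo1-labelled library, with the next at 639 CPM. In the shared genes Nfkbia, Pycr1, Znrf2, Hhip, Nupr1 and Pfkl the outlying library lay on the same side of WT as the other 5.

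The effect on Cebpd differed between the knockout labels (edgeR adjusted p = 0.0478 over all genes tested), with log2 fold changes of 1.5 for Stc1, 1.98 for Pygo1 and 2.35 for Rlim; each of the 6 libraries was above both WT libraries.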

How the results depend on the processing

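The higher and lower shared genes numbered 44 and 37. They numbered 29 and 15 with a mean of at least 5 CPM required, 379 and 228 with DESeq2, 1210 and 1159 with voom, 128 and 111 with 1 mean per group, 80 and 59 with each label pair summed, 16 and 7 with the Rlim pair summed, and 15 and 7 at an adjusted p under 0.01. With each chromosome scaled to WT the counts were 47 and 32, of which only 37 and 28 were among the 44 and 37. Without both libraries of a label the shared genes numbered 398 and 410 (Stc1), 25 and 22 (Pygo1) and 8 and 5 (Rlim). With 1 library left out the higher genes ranged from 0 to 118 and the lower from 0 to 95. The main fit did not use replicate numbers as pairs. The correlation of same-numbered deviations ran from -0.203 to 0.376 over 6 pairs of groups. With the replicate block 19 genes were higher and 9 lower, 9 and 37 in genome 1 reads, 11 and 46 in genome 2 reads, and 73 differed between labels. Of 33 named calls 16 remained, and the 17 lost included Csf3, Lif, Nfkbia, Cebpd, Chac1, Mthfd2 and Aqp1.

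In genome 1 reads 26 genes were higher and 90 lower. These were 180 and 274 with 1 mean per group, 15 and 31 with label pairs summed, 11 and 55 with the Rlim pair summed, 47 higher without Stc1-labelled libraries, 13 and 46 without Pygo1 and 58 and 551 without Rlim; with 1 library left out they ranged from 0 to 54 and from 0 to 110. In genome 2 reads 28 were higher and 114 lower. These were 161 and 416 with 1 mean per group, 17 and 39 with label pairs summed, 13 and 61 with the Rlim pair summed, 114 and 292 without Stc1-labelled libraries and 3 and 14 without Rlim; with 1 library left out they ranged from 0 to 47 and from 2 to 108. Differences between labels numbered 399, against 981 with no filter, 27 at an adjusted p under 0.01, and 11 to 5700 with 1 library left out.

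The cytokine list's median log2 change was 0.94, and 1.23 with no filter. The ATF4 list's was -0.34, against -0.28 with upper-quartile scaling, -0.29 with a mean of at least 5 CPM, -0.40 without Stc1-labelled and -0.39 without Pygo1-labelled libraries; with 1 library left out it ranged from -0.38 to -0.34. Medians of the NF-kB, cholesterol and glycolysis lists moved less than their spread. The uncalled target changes reversed: Pygo1 to -0.20 without Stc1 library 2 and -0.14 without both; Rlim to -0.022 with its pair summed, -0.039 without WT 2, -0.076 without Stc1 library 2, -0.043 and -0.0025 without Rlim library 1 or 2, and -0.13 without both; Xist to 0.077 with each chromosome scaled. With 1 library left out, Pygo1 ranged from -0.20 to 0.74 and Rlim from -0.076 to 0.14. The causes were not tested. None of the 33 called genes taken by the selection rule reversed in the alternatives run, and the other genes were not included there. Genes under 1 CPM rest on few reads, and the WT pair limits every comparison.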

Other observations

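Outside the autosomes, 6 X-linked genes passed the same test, all of them lower in the 6 knockout-labelled libraries, and they were looked at after the autosomal results were known. Bex1, a small adaptor protein best known in neurons, averaged 0.223 CPM in knockout-labelled libraries and 5.97 CPM in WT, with 0.0416 to 0.459 CPM in the edited libraries, against 5.65 and 6.29 CPM in WT (log2 fold change -4.73 ± 0.66 SE, edgeR adjusted p = 0.0269). Maoa, which oxidises monoamines at the mitochondrial outer membrane, had 17.8 to 31.0 CPM in edited libraries, against 66.7 and 74.0 CPM in WT (-1.39 ± 0.19 SE, edgeR adjusted p = 0.0266). Nsdhl, a sterol C4 decarboxylase of cholesterol synthesis, had 17.6 to 28.4 CPM, against 46.3 and 46.4 CPM in WT (-1.15 ± 0.18 SE, edgeR adjusted p = 0.0347). Car5b, a mitochondrial carbonic anhydrase, averaged 36.5 CPM in edited libraries and 84.7 CPM in WT, Amot, an angiomotin of the Hippo pathway, 113 CPM and 215 CPM, and Cetn2, a centrin, 9.47 CPM and 18.8 CPM.

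Genes of the primary cilium were among the smaller shared falls. Tmem231, a protein of the ciliary transition zone, had 28.8, 27.7, 24.7, 29.96, 24.3 and 25.4 CPM in edited libraries, against 49.9 and 50.5 CPM in WT. For Tmem231 the log2 ratio was -0.91 ± 0.11 (edgeR adjusted p = 0.0156). Ift22, a subunit of intraflagellar transport, had 23.3, 19.7, 23.5, 26.1, 25 and 23.9 CPM in edited libraries, against 38.6 and 43.2 CPM in WT. For Ift22 the log2 ratio was -0.79 ± 0.12 (edgeR adjusted p = 0.0362). Both fell in all 6 libraries, and no list of ciliary genes was examined. Tspan8, a tetraspanin, fell further, with 0.429 to 0.7996 CPM in edited libraries, against 4.99 and 4.99 CPM in WT (-3.07 ± 0.25, edgeR adjusted p = 0.00262), but its exons overlap a predicted gene. Aire, known from thymic epithelium, had 0.305 to 1.23 CPM in edited libraries, against 0.0125 and 0.013 CPM in WT, and its exons overlap Dnmt3l. Foxs1, a forkhead factor, had 0.249 to 0.633 CPM in edited libraries, against 0.013 and 0.0376 CPM in WT. All of these genes were chosen after their values were seen.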
